A study of Mus musculus with 6 samples.

Results

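The genes described here encode the nuclear subunits of the mitochondrial respiratory chain and of ATP synthase. They were chosen by symbol: names beginning with Nduf and a subunit letter and number, Sdha to Sdhd, and names beginning with Uqcr, Cox4 to Cox8 or Atp5, each with a row of the array paired with that gene alone. The rule found 81 genes of the 19938 measured: 35 of complex I, 4 of complex II, 8 of complex III, 17 of complex IV and 17 of complex V. All 81 entered the test, since no filter on dim genes was set. The study set Renca tumors grown inside the kidney, after injection into the outer cortex, against Renca tumors grown under the skin. Renca is 1 renal carcinoma cell line of BALB/c origin, the hosts at both sites were BALB/c mice, and the tumors were taken 12 days after injection. There were 3 intrakidney and 3 subcutaneous tumors, and the design text gives each group its own 3 mice. The labels used here name neither sex nor age of the mice.

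Complexes I and II pass electrons from NADH and succinate to ubiquinone, complex III passes them to cytochrome c, and complex IV passes them to oxygen. Complexes I, III and IV pump protons, and complex V, the ATP synthase, uses the resulting gradient to make ATP. Renal tubule cells, above all those of the proximal tubule, are among the cells richest in mitochondria, while human clear cell renal carcinoma is known for reduced respiration and a high level of NDUFA4L2, a target of the hypoxia-inducible factor. The core catalytic subunits are few and the many accessory subunits surround them, and several subunits of complex IV have a second isoform gene used in muscle, lung or testis.

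Most nuclear subunit genes share promoters of a housekeeping type, in which the nuclear respiratory factor NRF1 and factors of the ETS family, such as GABP, are known regulators. RefSeq's promoter table (assembly GRCm38.p6) held 71 promoter sequences for 66 of the 81 genes. GCGC, any 2 bases and GCGC again, a core of the NRF1 motif, stood on either strand within the 250 bases before the start site in 14 of these 71 promoters (19.7%), against 6.85% of the 21263 promoters of protein-coding genes. The ETS letters CCGGAAG stood in 12 of the 71 (16.9%), against 8.98% of the 21263, and 3 promoters, those of Atp5h, Cox6a1 and Sdhd, held both, without overlap. The letters AAGATGGC of the YY1 motif stood in 1 of the 71 (1.41%), against 1.5% overall. Over the whole 300-base window, which reaches 50 bases past the start, they stood in 10 of the 71 (14.1%), against 3.05% overall. A match of letters is a description and not a binding site, and only these exact letters were searched, not other forms of the motifs. The 4 promoters below belong to genes whose values are given further on. They show a promoter with NRF1 and ETS letters (Sdhd, chr9:50603850-50604099, minus strand) and with NRF1 letters alone (Atp5k, chr5:108434400-108434649, minus strand). The others show ETS letters alone (Uqcr11, chr10:80406822-80407071, minus strand) and neither of these exact letters (Cox7b2, chr5:71548206-71548455, minus strand). Each is the 250 bases before the start site, 5′ to 3′ in the direction of the gene, with NRF1 and ETS letters in capitals.
Sdhd: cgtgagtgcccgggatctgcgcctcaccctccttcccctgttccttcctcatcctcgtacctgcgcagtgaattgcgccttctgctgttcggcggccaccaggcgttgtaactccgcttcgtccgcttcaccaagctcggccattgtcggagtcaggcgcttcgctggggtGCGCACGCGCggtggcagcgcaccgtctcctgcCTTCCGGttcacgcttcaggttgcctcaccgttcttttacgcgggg
Atp5k: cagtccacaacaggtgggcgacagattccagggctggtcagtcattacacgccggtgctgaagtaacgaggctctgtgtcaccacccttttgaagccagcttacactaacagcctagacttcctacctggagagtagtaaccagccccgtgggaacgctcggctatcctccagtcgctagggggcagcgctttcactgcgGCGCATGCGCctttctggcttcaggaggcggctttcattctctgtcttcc
Uqcr11: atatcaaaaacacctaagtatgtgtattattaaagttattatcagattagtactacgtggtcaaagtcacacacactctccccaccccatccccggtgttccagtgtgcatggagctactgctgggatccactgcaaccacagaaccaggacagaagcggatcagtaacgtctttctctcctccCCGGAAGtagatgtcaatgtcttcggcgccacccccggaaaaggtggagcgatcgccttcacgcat
Cox7b2: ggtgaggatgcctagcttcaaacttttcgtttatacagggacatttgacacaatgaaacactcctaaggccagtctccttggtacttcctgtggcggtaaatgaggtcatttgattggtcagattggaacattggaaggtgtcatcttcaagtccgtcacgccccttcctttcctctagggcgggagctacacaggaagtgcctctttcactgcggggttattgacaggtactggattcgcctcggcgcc
In Sdhd the NRF1 letters began 79 bases and the ETS letters 46 bases before the start, in Atp5k the NRF1 letters began 50 bases before it, and in Uqcr11 the ETS letters began 66 bases before it. The 13 genes with NRF1 letters had a median log2 difference between the tumor sites of 0.074, and the other 53 genes with a promoter sequence had 0.052. The 12 genes with ETS letters had 0.056 and the other 54 had 0.053.

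The arrays gave log2 RMA values, with an array median between 7.08 and 7.11, and all differences are intrakidney minus subcutaneous on that log2 scale. The signal of proximal tubule markers was unequal among the intrakidney tumors. The mean log2 value over 23 proximal tubule markers was 6.55, 6.88 and 7.33 in intrakidney tumors 1, 2 and 3, against 6.52 to 6.67 in subcutaneous tumors. Of these 23 markers, 13 lay below the 40th percentile of all genes by mean value. Intrakidney tumor 1 also had the lowest array mean over all genes (7.51), but the highest over genes above that percentile (8.91). The part of such dim genes in the low marker mean of intrakidney tumor 1 was not tested. In bulk tumor RNA, fewer cells of a type and less RNA per cell cannot be told apart.

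No subunit gene of any complex passed the threshold of an adjusted p of 0.05 over all genes (limma, Benjamini-Hochberg), where 0.231% of all genes did. At an unadjusted p of 0.05, 1 of the 81 genes passed (1.23%), against 8.43% of all genes. That gene, Cox7b2, lay higher in intrakidney tumors, as did 4.72% of all genes at this p, and 0 of the 81 lay lower, against 3.71% of all genes. The differences were small: they ran from -0.23 (0.852-fold, Cox6b2) to 0.25 (1.19-fold, Cox7b2), both of them genes of testis isoforms, and 79 of 81 were under 0.2 in size (1.15-fold). Of the 81 genes, 62 (76.5%) differed by less than 0.1 in size (1.07-fold), as did 60.7% of all genes.

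How large a difference in array signal the 6 arrays could still hide is given by the 95% intervals of the fit, which were not adjusted for the number of genes. These intervals do not bound a difference in transcript amount, which the array signal may understate. For 80 of the 81 genes the whole interval lay within 0.5 of 0 on the log2 scale (1.41-fold in either direction), as it did for 88.8% of all genes. The exception was Cox6b2, with an interval from -0.61 to 0.14. All members of complexes I, II, III and V were inside that bound. The half-width of the interval had a median of 0.18 and ran from 0.15 to 0.38. The spread within a group was also narrow, with a median pooled SD of 0.078 log2 units for the 81 genes and 0.118 for all genes, and the median log2 signal was 10.09 for the 81 genes and 7.48 for all genes. Among genes above the 40th percentile of mean value, the median pooled SD was 0.097.

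**Figure D1:**
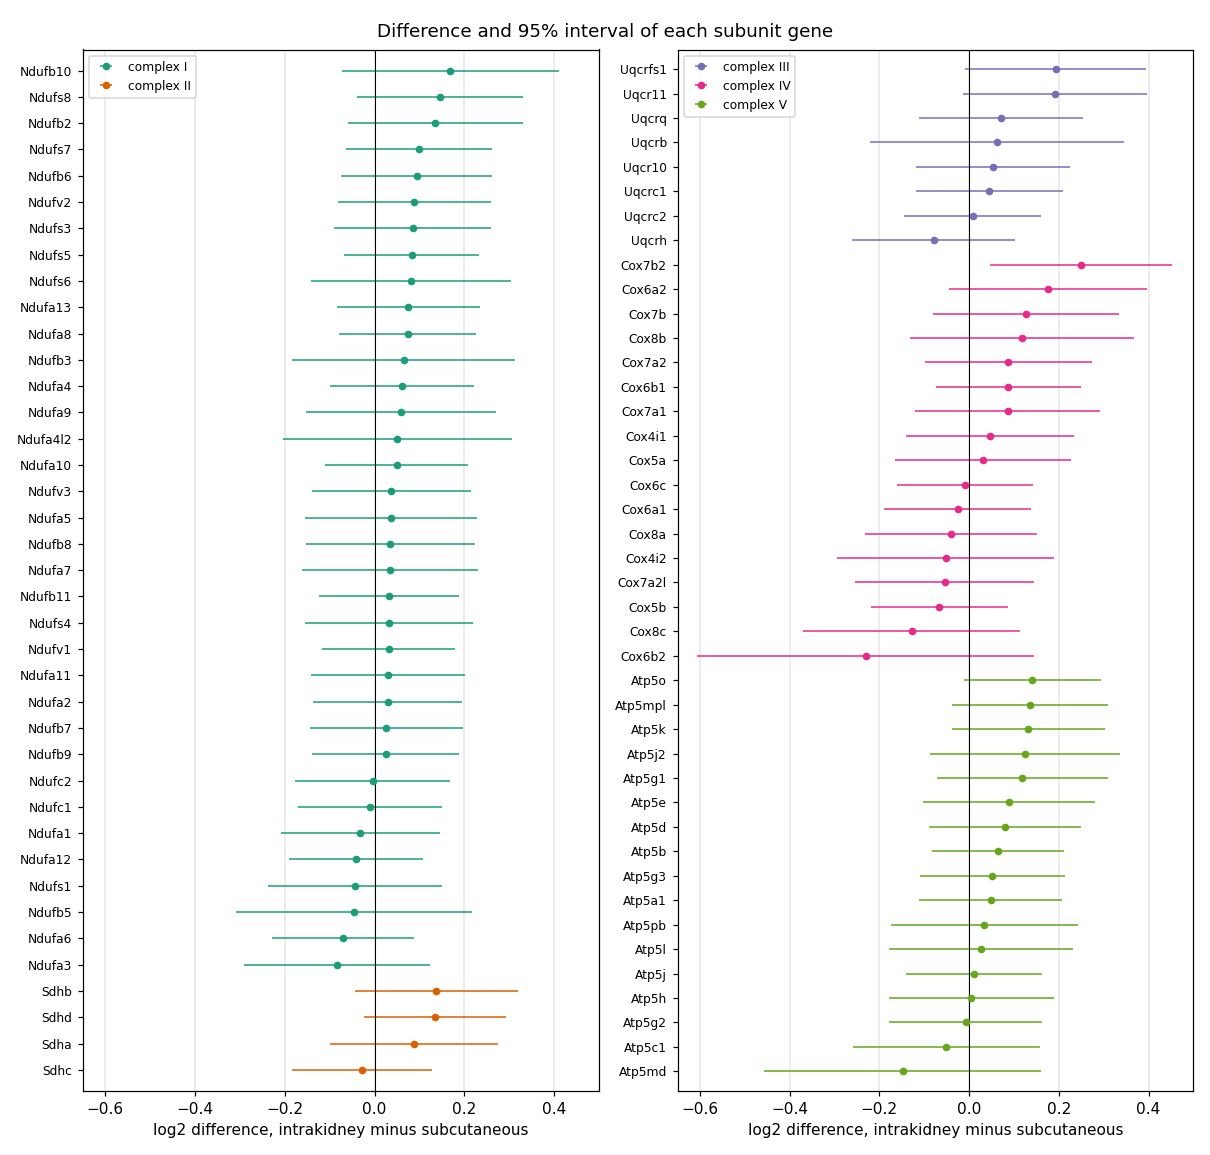
Log2 difference, intrakidney minus subcutaneous (horizontal axis), of each of the 81 subunit genes (vertical axis), with bars for the 95% interval of the limma fit, 3 tumors per group, coloured by complex. All intervals hold 0 but that of Cox7b2, and all lie within 0.5 of 0 but that of Cox6b2.

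Although each gene's difference was small, the signs were unequal: 60 of the 81 genes lay higher and 21 lower in intrakidney tumors (74.1% higher), against 48.0% higher among all genes. The median difference was 0.048 (1.03-fold), against -0.0058 for all genes and -0.0016 for genes above the 40th percentile of mean value. Members are not replicates, and the shift has no test of its own here. The mean log2 value over the 81 genes was 9.98, 9.99 and 9.95 in intrakidney tumors 1, 2 and 3, against 9.92, 9.96 and 9.90 in subcutaneous tumors 1, 2 and 3. Intrakidney tumor 3 therefore lay below subcutaneous tumor 2, and the groups overlapped. Array weights estimated from the data, highest for subcutaneous tumor 2 (3.55) and intrakidney tumor 3 (2.57), moved the median to 0.008, with 42 of 81 genes higher.

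Arrays differed from each other across the whole chain. Measured from each gene's own mean over the 6 arrays, the median deviation of the 81 genes was 0.028, 0.034 and -0.007 in intrakidney tumors 1, 2 and 3, against -0.021, 0.005 and -0.048 in subcutaneous tumors 1, 2 and 3. Subcutaneous tumor 3 held the lowest value of 30 genes and the highest of 2, and intrakidney tumor 2 held the highest of 24 and the lowest of 5. Over all 19938 genes, subcutaneous tumor 3 held the lowest value of 2877 and the highest of 3481, with a median deviation of 0.003. Intrakidney tumor 2 held the highest of 4403 and the lowest of 2865, with a median deviation of 0.024. Over genes above the 40th percentile of mean value, subcutaneous tumor 3 had the lowest array mean, 8.87, and the other arrays had 8.88 to 8.91. Intrakidney tumor 3, the array with the highest proximal tubule level, held the highest value of 8 subunit genes and the lowest of 10. Of all genes it held the highest value of 2516 and the lowest of 2904. The part of tubule transcripts in the subunit values was not tested. With intrakidney tumor 1 as the only intrakidney array, a choice made after seeing the data, the median difference was 0.049, with no spread of its own within that group.

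**Figure D2:**
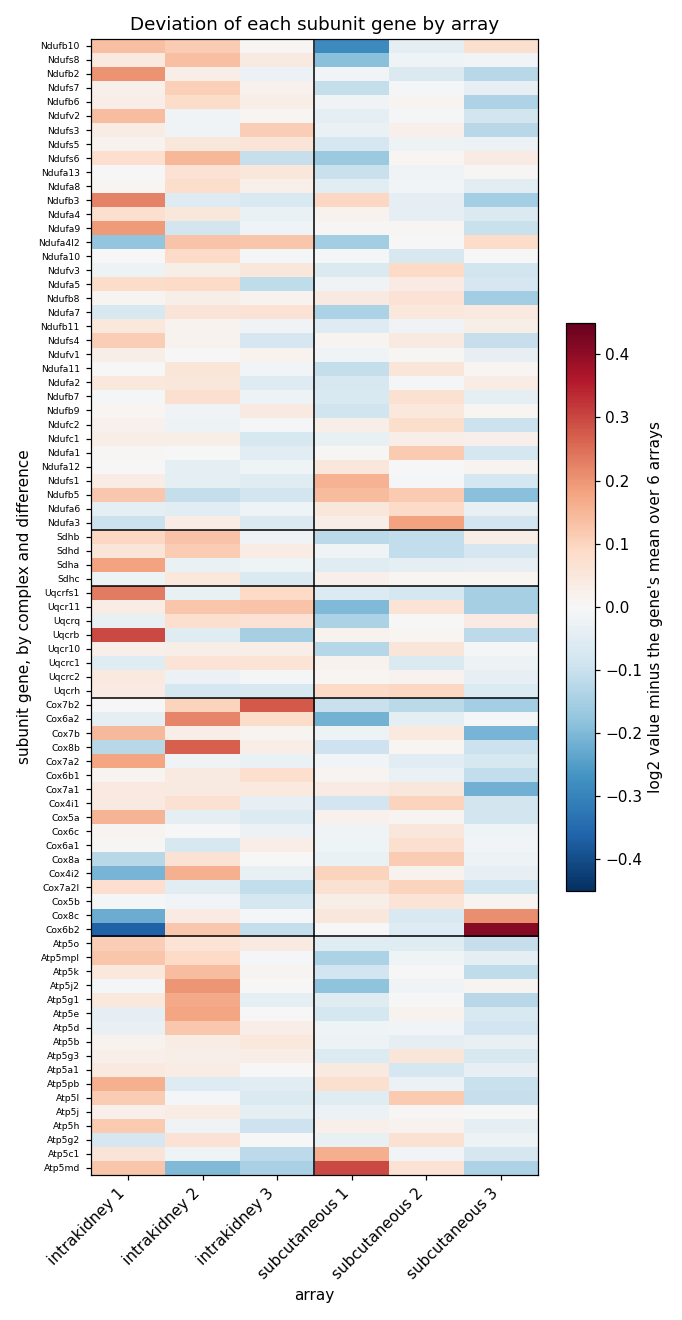
Log2 value of each of the 81 genes (rows, ordered by complex from I at the top to V at the bottom and by difference within a complex) in each of the 6 arrays (columns, intrakidney left of subcutaneous), as the deviation from the gene's mean over the 6 arrays. Pale cells dominate, and the darkest cells belong to Cox6b2, a gene of low signal. Subcutaneous tumor 3 is mostly blue (lowest array for 30 of the 81 genes, and for 2877 of all 19938 genes).

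The 2 groups did not overlap for 16 of the 81 genes (19.8%), against 14.9% of all genes. In 14 of them (17.3%) every intrakidney tumor was above every subcutaneous tumor, against 8.41% of all genes, and in 2 of them (2.47%), Ndufa12 and Cox5b, every intrakidney tumor was below, against 6.53% of all genes. Ndufa12, an accessory subunit of complex I named for this count, differed by only -0.042.

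Complex I, the NADH dehydrogenase, had 27 of 35 genes higher and 8 lower, with a median difference of 0.037 and a range from -0.083 to 0.17. The median was 0.065 without subcutaneous tumor 2, and with array weights it turned to -0.0023, with 17 genes higher and 18 lower. Its core subunits, among them those that carry the flavin and the iron-sulfur clusters, had a median of 0.087 over 6 measured genes, 5 of them higher. The 29 other genes, which are accessory subunits by name and include Ndufa4 and Ndufa4l2, had a median of 0.036, 22 of them higher. The largest difference among core subunits was that of Ndufs8, which carries iron-sulfur clusters (transcript cluster 10464551). It measured 9.82, 9.91 and 9.81 in intrakidney tumors 1, 2 and 3, against 9.59, 9.76 and 9.76 in subcutaneous tumors 1, 2 and 3. The groups did not overlap, but the difference of 0.15 ± 0.079 (SE) did not pass (adjusted p = 0.700).

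Of the accessory subunits, Ndufb10 and Ndufb2 of the membrane arm had the largest positive differences, 0.17 ± 0.10 and 0.14 ± 0.083 (SE). Ndufb10 measured 7.40, 7.38 and 7.27 in intrakidney tumors, against 6.98, 7.23 and 7.34 in subcutaneous tumors, so that subcutaneous tumor 1 set most of the gap. At the other end stood the accessory subunit genes Ndufa3, Ndufa6 and Ndufb5, with differences of -0.083, -0.071 and -0.046, each with overlapping groups. Ndufa4, which the rule places in complex I by its name but whose protein is now counted with complex IV, differed by 0.061 (interval from -0.10 to 0.22). Its paralog Ndufa4l2 measured 6.87, 7.17 and 7.17 in intrakidney tumors, against 6.89, 7.05 and 7.13 in subcutaneous tumors, a difference of 0.050 (interval from -0.20 to 0.31). Neither paralog separated the sites.

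Complex II, the succinate dehydrogenase that is also an enzyme of the tricarboxylic acid cycle, had the highest median difference of the 5 complexes, 0.11 over its 4 genes, and its median was 0.072 without intrakidney tumor 1. Sdhb, the iron-sulfur subunit, measured 10.24, 10.28 and 10.13 in intrakidney tumors 1, 2 and 3, against 10.03, 10.04 and 10.17 in subcutaneous tumors 1, 2 and 3. Subcutaneous tumor 3 lay above intrakidney tumor 3, so the groups overlapped, and the difference was 0.14 ± 0.078 (SE, adjusted p = 0.716). Sdhd, a membrane anchor whose promoter with both motifs is printed above, measured 10.12, 10.19 and 10.11 in intrakidney tumors, against 10.06, 9.96 and 9.997 in subcutaneous tumors. Here the groups did not overlap, and the difference was 0.13 ± 0.068 (SE, adjusted p = 0.683). Sdha, the flavoprotein, measured 10.82, 10.61 and 10.62 in intrakidney tumors, against 10.58, 10.60 and 10.60 in subcutaneous tumors. The groups did not overlap, but intrakidney tumor 1 stood apart from the other 5 values, and with it as the only intrakidney array the difference of 0.088 became 0.23. Sdhc, the other membrane anchor, differed by -0.028 ± 0.067 (SE), with subcutaneous values from 10.26 to 10.27.

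Complex III, the cytochrome bc1 complex, had 7 of 8 genes higher, a median difference of 0.058 and the largest differences of any subunit gene outside the tissue isoforms. Uqcrfs1, the Rieske iron-sulfur protein (transcript cluster 10408487), measured 9.17, 8.90 and 9.02 in intrakidney tumors 1, 2 and 3, against 8.87, 8.86 and 8.79 in subcutaneous tumors 1, 2 and 3. The groups did not overlap, by a margin set by intrakidney tumor 2. The difference was 0.19 ± 0.086 (SE, 1.14-fold, adjusted p = 0.619), with an interval from -0.008 to 0.39. Uqcr11, a small membrane subunit, measured 8.61, 8.70 and 8.71 in intrakidney tumors, against 8.38, 8.64 and 8.43 in subcutaneous tumors. Its difference was also 0.19 (adjusted p = 0.634), while a dimmer row of the same gene gave 0.034. The core proteins Uqcrc1 and Uqcrc2 differed by 0.045 and 0.008. Uqcrq differed by 0.072, and Uqcrh, the hinge protein, was the member that lay lower, by -0.079 with overlapping groups.

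Complex IV, the cytochrome c oxidase, was the least one-sided, with 9 of 17 genes higher and 8 lower and a median difference of 0.032, which rested on single arrays. It was 0.071 when intrakidney tumor 3 was left out and 0.013 when intrakidney tumor 2 was, against -0.0016 when subcutaneous tumor 3 was left out and 0.015 when subcutaneous tumor 1 was. With array weights it was -0.035. Its 10 measured subunit genes that are used in most tissues, counted with Cox7a2l and without Ndufa4, were split evenly, 5 higher and 5 lower, with a median of 0.011. Cox7b led them at 0.13 ± 0.089 (SE), and Cox5b stood at the low end with 11.97, 11.96 and 11.89 in intrakidney tumors, against 12.00, 12.03 and 11.98 in subcutaneous tumors. These groups did not overlap, by a small margin, and the difference of -0.066 ± 0.066 (SE) did not pass (adjusted p = 0.876). Cox6b1, the subunit on the cytochrome c side, differed by 0.087 (adjusted p = 0.828). Its intrakidney values were all above its subcutaneous values, but only barely, with a lowest of 10.5125 against a highest of 10.5117.

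The isoform genes of complex IV come in pairs of a broad and a restricted form. Cox4i1, the broad form of the subunit that binds ATP, differed by 0.046, and Cox4i2, its form of the lung that is induced by low oxygen, by -0.052. Cox4i2 measured 7.07, 7.44 and 7.25 in intrakidney tumors, against 7.38, 7.30 and 7.24 in subcutaneous tumors, which overlapped fully. The heart and skeletal muscle forms Cox6a2, Cox8b and Cox7a1 differed by 0.18, 0.12 and 0.086, and their broad partners Cox6a1, Cox8a and Cox7a2 by -0.026, -0.041 and 0.087. None of these 6 passed. The skeletal muscle marker list, in the same arrays, had 13 of 14 genes lower and a median of -0.10. Of these 14 genes, 8 lay below the 40th percentile of all genes by mean value. At an unadjusted p of 0.05, 1 of them lay lower, as did 3.71% of all genes. Intrakidney tumor 1 had the lowest array mean for this list (6.45), for the 8 tissue-restricted isoform genes including Ndufa4l2 (6.63), and for all genes (7.51). Over genes above the 40th percentile of mean value its mean was 8.91, the highest. The part of this array in the differences of dim genes was not tested. Cox7a2l differed by -0.054, and its dimmer row by 0.034, with the opposite sign.

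Cox7b2, the testis form of Cox7b (transcript cluster 10530417), was the gene with an unadjusted p under 0.05. It measured 4.22, 4.33 and 4.50 in intrakidney tumors 1, 2 and 3, against 4.13, 4.10 and 4.07 in subcutaneous tumors 1, 2 and 3. The intrakidney values were all higher, and highest in tumor 3, which also had most proximal tubule transcripts, whose part in this result was not tested. The difference of 0.25 ± 0.087 (SE) missed the threshold (adjusted p = 0.470), and it passed with array weights (adjusted p = 0.0442), which give intrakidney tumor 3 a weight of 2.57. With intrakidney tumor 1 as the only intrakidney array it was 0.12. The other testis forms Cox6b2 and Cox8c differed by -0.23 and -0.13, with overlapping groups, so the 3 testis isoform genes did not lie on the same side. Of these, Cox7b2 and Cox6b2 lay, with Cox8b of muscle, below the 40th percentile of all genes by mean value.

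**Figure D3:**
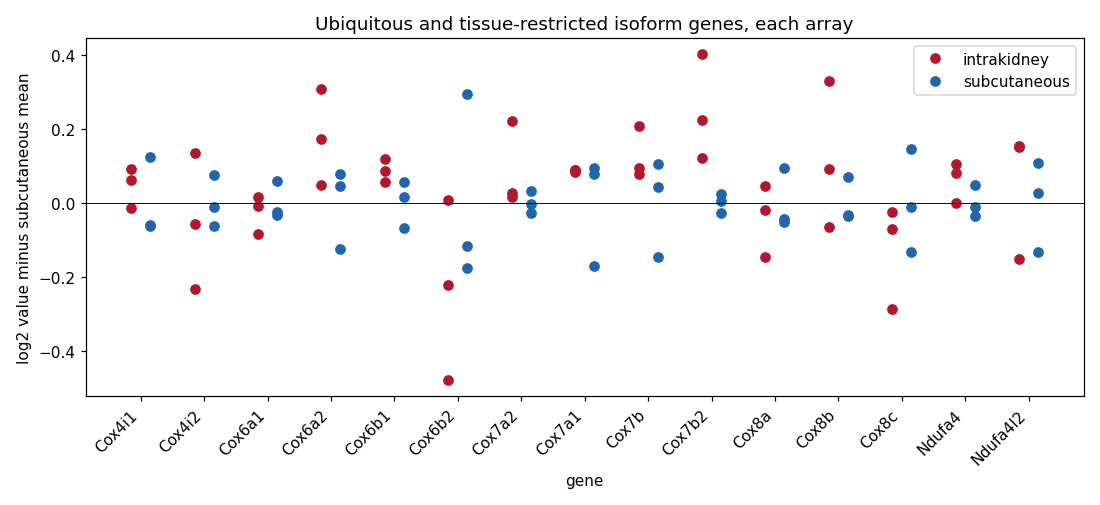
Log2 value minus the mean of the 3 subcutaneous tumors (vertical axis) for broad and restricted isoform genes of complex IV and for the pair Ndufa4 and Ndufa4l2 (horizontal axis), each point 1 tumor. Intrakidney points stand left of subcutaneous points. The points of Cox7b2 do not overlap between groups, those of Cox6b1 all but touch, and those of Cox6b2 spread most.

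Complex V had 14 of 17 genes higher and 3 lower, with a median difference of 0.052, which was 0.091 without subcutaneous tumor 2 and 0.029 with array weights. The 5 genes of its catalytic head and central stalk had a median of 0.065, the 4 genes of the peripheral stalk 0.023, the 3 genes of the c-ring 0.052, and the 5 other membrane subunit genes 0.13. Atp5o, which joins the head to the peripheral stalk (transcript cluster 10440977), measured 10.58, 10.53 and 10.51 in intrakidney tumors 1, 2 and 3, against 10.42, 10.42 and 10.37 in subcutaneous tumors 1, 2 and 3. Every intrakidney value was higher, and the difference was 0.14 ± 0.065 (SE, 1.10-fold, adjusted p = 0.639). Atp5k, a membrane subunit whose promoter with NRF1 letters is printed above, measured 9.15, 9.24 and 9.11 in intrakidney tumors, against 9.02, 9.11 and 8.99 in subcutaneous tumors. Its lowest intrakidney value was barely above its highest subcutaneous one, and the difference was 0.13 ± 0.073 (SE). Atp5mpl, another small membrane subunit, differed by 0.14 ± 0.074 (SE).

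The 3 c-ring genes encode the same mature protein from different precursors. Atp5g1 differed by 0.12, Atp5g3 by 0.052 and Atp5g2 by -0.007, and the groups overlapped for each. Atp5c1, the rotor subunit gamma, differed by -0.051. Atp5md, a small subunit at the dimer interface, had the lowest difference of the complex, -0.15 ± 0.13 (SE). It measured 11.46, 11.14 and 11.19 in intrakidney tumors, against 11.64, 11.40 and 11.20 in subcutaneous tumors, which overlapped. Its 3 rows gave differences from -0.15 to -0.11. Of the 81 genes, 16 had 2 to 6 rows, 40 in all, and the rows of 2 of these genes differed in sign. Many subunit genes have processed pseudogene copies, which probes may not tell apart.

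Genes that act around the chain also differed little, and none of the 6 other mitochondrial lists had a member past the threshold over all genes (limma). Of 43 measured assembly factor genes, 31 lay higher and 12 lower, with a median difference of 0.074. They ran from Cox20, a chaperone of complex IV, at -0.33 to Uqcc2, an assembly factor of complex III, at 0.28. At an unadjusted p of 0.05 the list held 3 higher and 1 lower, against 8.43% of all genes in either direction. The tumor groups did not overlap for 11 higher and 2 lower genes of this list, against 8.41% and 6.53% of all genes. Of 8 proteins of the chain that the rule leaves out, 6 lay higher. Only Cycs of these had an unadjusted p under 0.05, in the higher direction, as did 4.72% of all genes. For 5 of the 8 the groups did not overlap in the higher direction, and for 1, Etfdh, in the lower, against 8.41% and 6.53% of all genes. Cycs, cytochrome c, measured 10.97, 10.69 and 10.76 in intrakidney tumors, against 10.51, 10.62 and 10.56 in subcutaneous tumors. These did not overlap, and the difference of 0.24 ± 0.091 (SE) did not pass (adjusted p = 0.513). Cyc1, the cytochrome c1 of complex III, differed by 0.085, and Etfdh, which feeds electrons from fatty acid oxidation to ubiquinone, stood lowest of these at -0.081.

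The 77 genes of the mitochondrial ribosome, which makes the subunits encoded in mitochondrial DNA, had 66 higher and 11 lower, with a median of 0.10 and 6 higher at an unadjusted p of 0.05, against 4.72% of all genes. They were not tested against the chain. They ran from Mrpl23 at -0.083 to Mrpl22 at 0.32. Their groups did not overlap for 16 genes, all of them higher in intrakidney tumors, where 8.41% of all genes did so. The tricarboxylic acid cycle list had 10 of 15 genes higher and a median of 0.036, from Pdhb of pyruvate dehydrogenase at -0.13 to Idh3a of isocitrate dehydrogenase at 0.28. Idh3a alone of these 15 had an unadjusted p under 0.05, against 8.43% of all genes in either direction. Mitochondrial fatty acid oxidation had 7 of 12 higher and a median of 0.059. It ran from Cpt1a, the carnitine transferase of the outer membrane, at -0.26 to Acads, the short-chain dehydrogenase, at 0.24. In each direction 1 of the 12 had an unadjusted p under 0.05, against 4.72% of all genes higher and 3.71% lower. The biogenesis list had 11 of 15 higher and a median of 0.045, from Gabpa at -0.13 to Pprc1 at 0.21. At an unadjusted p of 0.05 it held 0 genes, against 8.43% of all genes. Within it the coactivator Ppargc1a differed by 0.090, Nrf1 by 0.022 and Tfam, the packaging factor of mitochondrial DNA, by 0.017. The groups did not overlap for 4 higher and 0 lower genes of the tricarboxylic acid cycle list. The fatty acid oxidation list had 3 higher and 2 lower such genes and the biogenesis list 0, against 8.41% of all genes higher and 6.53% lower.

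Several lists of cell type markers had larger median differences than the chain. The proximal tubule list had 19 of 23 genes higher and a median of 0.20, from Aqp1 at -1.04 to Cyp2e1 at 2.55. Aqp1 and Gatm, both lower in intrakidney tumors, had means of 9.17 and 10.67 in subcutaneous tumors. Renca is itself a renal line, and whether tubule transcripts came from tumor or host cells was not tested. The list of loop, distal tubule and collecting duct had 9 of 14 higher and a median of 0.096. The adipocyte list had a mean of 7.50 ± 0.036 over the 3 intrakidney tumors, against 6.84 ± 0.071 over the 3 subcutaneous tumors (± SD), with 10 of 12 genes higher and a median of 0.15. Past the threshold were Car3 (3.41), Fabp4 (2.08) and Cidec (0.66), which with Adipoq (1.14) set most of the gap in the mean, while Plin4 and Pnpla2 differed by -0.18 and -0.13. Endothelial genes had 7 of 7 higher, Emcn past the threshold, and a median of 0.37, and macrophage genes 6 of 9 and 0.12. Fibroblast genes had 7 of 9 lower, Postn past the threshold, and a median of -0.45, and T cell genes 8 of 8 lower and a median of -0.37. The adipocyte mean was higher in each intrakidney tumor than in any subcutaneous tumor. The part of these cells in the subunit values was not tested.

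**Figure D4:**
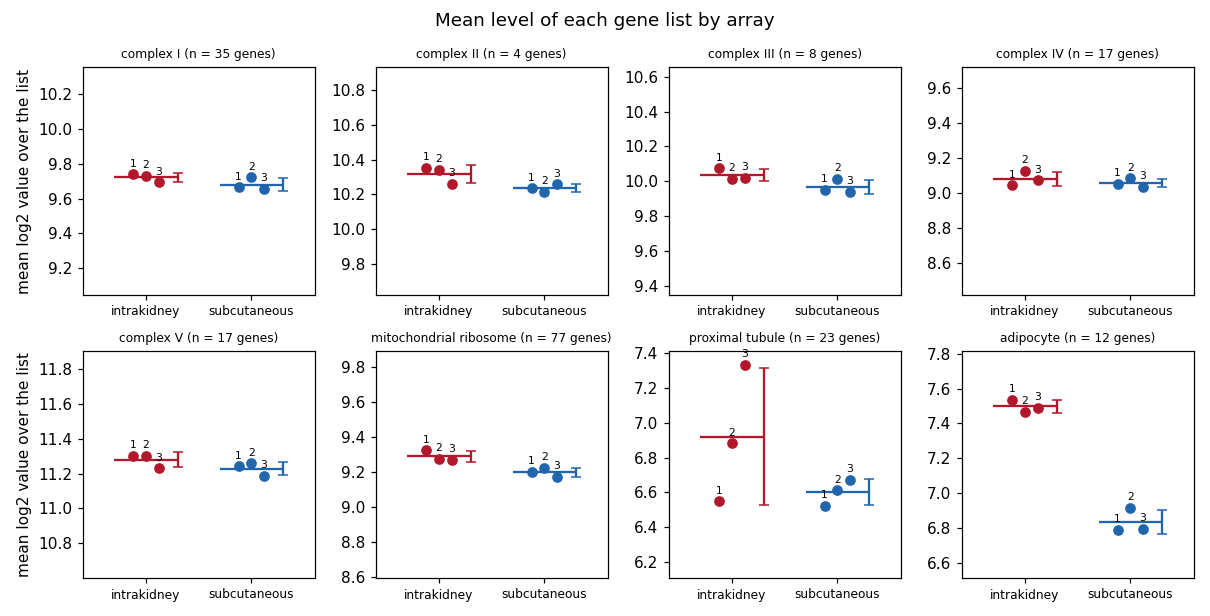
Mean log2 value over each list in each array (points, numbered by tumor), with the group mean (line) and SD (bar, n = 3 tumors per group), for the 5 complexes, the mitochondrial ribosome, proximal tubule and adipocyte markers. Every panel spans the same height in log2 units. The complexes differ little between groups, while adipocyte markers stand at 7.50 against 6.84 and proximal tubule markers spread from 6.55 to 7.33 within the intrakidney group.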

How the data were processed

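Total RNA of 6 snap-frozen tumors was hybridised to Affymetrix Mouse Gene 1.0 ST arrays, per the labels. The authors deposited log2 values. The submitters' processing notes name RMA and affy, and the scale was judged from the range of 2.31 to 15.07. RMA compresses changes of dim features. For versions, probe set definition and build: not given in the sources used here. Of 35512 rows, the platform annotation paired 21789 with 1 gene, 1621 with several, and 12102 were not named here. Each gene was represented by its brightest row on average, and all 81 members matched a gene-name reference by identifier.

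The sites were compared by limma 3.58.1 (R 4.3.3, a mean per group, eBayes, two-sided) over 19938 genes, with Benjamini-Hochberg adjustment and a threshold of 0.05. The fit was tested on simulated data. Standard errors and 95% intervals are those of the moderated fit. With 3 arrays a site, their number limits precision. No batch is named in the labels. The members, the 6 other mitochondrial lists and the 8 marker lists were chosen with earlier results of these data known. Named are the 3 highest and 3 lowest members of complexes I, III, IV and V, all of complex II, isoform and paralog genes, the end members of each mitochondrial list, and Ppargc1a, Tfam, Nrf1, Cycs and Cyc1. Other settings were the replicate number as a block, array weights, the mean of a gene's rows, a filter at the 40th percentile of mean value, quantile normalization, centring on array medians, a robust prior with an intensity trend, and leaving out each array. Leaving out intrakidney tumors 2 and 3, which leaves 1 intrakidney array assumed to vary like the other group, was chosen after seeing the data.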

Additional observations from a re-analysis of the deposited data

How the results depend on the processing

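The number of subunit genes past the threshold was 0 as reported and 0 under all other settings but array weights, which gave 1, Cox7b2 (624 of all genes then passed). Of all genes, 46 passed as reported, 138 with an intensity trend and robust prior, 101 without dim genes, 30 without intrakidney tumors 2 and 3, and 2 to 33 when 1 array was left out. The replicate number as a block gave 0 subunit genes and 0 of all genes, with the median difference at 0.0483. The labels give same-numbered tumors nothing in common but the number. Their deviations from the group means correlated at 0.37, -0.16 and 0.10 for numbers 1, 2 and 3, and intrakidney tumor 2 correlated best with subcutaneous tumor 3 (0.43). The 3 deviations of a group sum to 0, so these correlations depend on each other. They cannot tell whether same-numbered tumors were handled together. Quantile normalization and median centring gave median differences of 0.050 and 0.059 for the 81 genes. Array weights gave 0.008 for the 81 genes, -0.0023 for complex I and -0.0349 for complex IV. The highest weights were those of subcutaneous tumor 2 (3.55) and intrakidney tumor 3 (2.57), whose means over the 81 genes were 9.96 and 9.95. What set the weights was not tested. Leaving out 1 array at a time gave medians of 0.036 to 0.068 for the 81 genes, 0.032 to 0.065 for complex I, 0.072 to 0.14 for complex II, 0.042 to 0.085 for complex III, -0.0016 to 0.071 for complex IV and 0.042 to 0.091 for complex V. Between 53 and 68 of the 81 genes were then higher, the fewest without subcutaneous tumor 3 and the most without subcutaneous tumor 2. Without dim genes the complex IV median was 0.011 over 14 genes. Of 571 recomputed values of 41 named genes, 23 moved by more than the spread between tumors, 1 newly passed, and 26 changed sign without passing.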

Other observations

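Rows outside the rule gave values for further subunits, chosen after the data had been seen. Of the subunits encoded in mitochondrial DNA, COX2 of complex IV had a row at 13.92, 13.63 and 13.69 in intrakidney tumors 1, 2 and 3, against 13.73, 13.84 and 13.75 in subcutaneous tumors 1, 2 and 3, a difference of -0.027. ND3 of complex I had a row at 13.17, 12.83 and 12.90 in intrakidney tumors, against 12.87, 12.92 and 12.83 in subcutaneous tumors, a difference of 0.096. Intrakidney tumor 1 was the highest array on both rows, and the groups overlapped.

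Cox7c of complex IV was measured only on 3 rows shared with Gm12338, which gave differences of -0.069, -0.070 and -0.11. Ndufb4 of complex I was measured only on rows shared with Ndufb4b, which gave 0.024 and 0.008. On each of these 5 rows subcutaneous tumor 1 was the highest array and subcutaneous tumor 3 the lowest. A further row, shared by Ndufs5 of complex I and Ndufs5-ps, gave -0.042. The row of Ndufs5 alone, where the groups did not overlap, gave 0.083, with the opposite sign.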
